A study of Homo sapiens with 10 samples.

Results

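Long cassette exons, the middle exons of more than 200 bp among the splicing events listed in the 8 deposited splicing tables, numbered 654 of 2969 distinct exons (22.0%). They were chosen by length alone, counted from the first to the last base of the middle exon in the event. All data came from C33A cells, a human cervical carcinoma line that the study describes as deficient in SWI/SNF, and cells were harvested 48 h after transient transfection. The control cells received the plasmid pOPRSVI, BRG1-wt cells received pBJ5-BRG1, BRG1-mut cells received pBJ5-BRG1-K798R, BRM-wt cells received pCG-hBrm, and BRM-mut cells received pCG-hBrm-K798R. The mutation K798R removes the ATPase activity of the protein. Each of the 5 groups had 2 replicate libraries of polyadenylated RNA, 10 in all, and the labels do not say whether the replicates came from separate cultures. The control plasmid has a different backbone from the ATPase plasmids, so that the ATPase and the backbone cannot be told apart, and the cells that took up a plasmid were not separated from the rest.

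Each table paired 1 ATPase library with the control that carries its replicate number. It listed the events with a MISO Bayes factor above 10, with the percentage spliced in (PSI) of the middle exon in both libraries, written as a fraction of transcripts from 0 to 1. An exon has no value in a table that does not list it, and all 4 ATPase groups share the 2 control libraries. Read numbers for single events are not in these files, so that the precision of a PSI value is unknown and no counting interval can be given. With 2 libraries against 2, an exact permutation test cannot give a two-sided p below 0.333, and values are therefore given by library with no test. An exon is said to rise or fall where a table lists it with a higher or lower PSI than control. The transfected genes followed the labels at the level of the groups. The authors' mean of the normalised counts over 2 ATPase and 2 control libraries was 25802 for SMARCA4, the gene of BRG1, in the table of BRG1-wt, 29824 in that of BRG1-mut, 3864 in the BRM-wt table and 3076 in the BRM-mut table. For SMARCA2, the gene of BRM, it was 12.6, 9.33, 59658 and 75591 in the same order, and these tables were normalised separately. SMARCA4 mRNA was thus present in cells without a BRG1 plasmid.

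A cassette exon is an internal exon that can be spliced into the mRNA or skipped as a unit. Most internal exons of human genes are short, and the splicing machinery usually recognises an exon as a unit through its acceptor site upstream and its donor site downstream, a mode called exon definition. Long exons are harder to bridge in this way, and some long exons of the annotation contain an intron that other transcripts remove. BRG1 and BRM are the alternative ATPases of the SWI/SNF chromatin remodelling complexes and have been linked to splicing as well as to transcription.

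The splice sites below belong to the 4 long exons with the largest mean rise and the 4 with the largest mean fall in PSI among those that moved in one direction in both replicates of BRG1-mut. They are shown for the size of their mean change, and the limits of single exons are given below. Each acceptor has 20 bases of intron and 3 of exon with the AG in capitals, each donor has 3 bases of exon and 6 of intron with the GT in capitals, and all are written 5′ to 3′ on the transcript strand of GRCh37.
FOSB acceptor: gtgtatgtgtcaccccgtAGgag
FOSB donor: acgGTgagt
SLC22A20P acceptor: gtctccctctctttccacAGtct
SLC22A20P donor: gaaGTgagg
SNX15 acceptor: tcctccctttctaactgcAGaag
SNX15 donor: ccaGTgagt
SZRD1 acceptor: tgtttgctctttgtcagcAGgaa
SZRD1 donor: cagGTgagt
ITGB1 acceptor: ttgtggtaatttattttcAGata
ITGB1 donor: gatGTaagt
WASH2P acceptor: catcagagttaactttgcAGtga
WASH2P donor: cagGTgagg
RPLP1 acceptor: gacgtttttatttgttgtAGgag
RPLP1 donor: cagGTagga
TSSC4 acceptor: gatttacctctgcctaacAGggc
TSSC4 donor: gagGTaacg

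All 8 exons were flanked by AG and GT. Of the 18 bases before the AG, between 10 (WASH2P) and 16 (SLC22A20P) were pyrimidines. Among the 654 long exons, 642 (98.2%) had AG before and GT after the exon, 10 had AG and GC, and 2 had other bases. The same share was 97.8% among the 2315 exons of up to 200 bp.

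Exon bodies are shown as examples of wholly coding exons that moved in one direction in both BRG1-mut replicates. Of these exons 22 rose and only 2 fell, so that the examples do not show a difference of base composition by direction. The rising examples are SNX15 (chr11:64806044-64806301, plus strand, exon 7 of 8) and the shorter form of SZRD1 (chr1:16719726-16719977, plus strand), each in full. The only wholly coding exons that fell in both replicates were in ENAH (795 bp, first 300 bases shown, chr1:225705393-225705692, minus strand) and LRR1 (722 bp, exon 3, first 300 bases shown, chr14:50074118-50074417, plus strand). Capitals mark runs of at least 3 G or 3 C.
SNX15: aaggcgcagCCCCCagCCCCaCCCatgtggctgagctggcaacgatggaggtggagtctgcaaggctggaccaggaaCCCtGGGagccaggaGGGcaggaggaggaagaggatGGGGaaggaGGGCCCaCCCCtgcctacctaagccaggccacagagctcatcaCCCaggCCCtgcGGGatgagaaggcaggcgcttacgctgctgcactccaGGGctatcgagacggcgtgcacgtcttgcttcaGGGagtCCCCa
SZRD1: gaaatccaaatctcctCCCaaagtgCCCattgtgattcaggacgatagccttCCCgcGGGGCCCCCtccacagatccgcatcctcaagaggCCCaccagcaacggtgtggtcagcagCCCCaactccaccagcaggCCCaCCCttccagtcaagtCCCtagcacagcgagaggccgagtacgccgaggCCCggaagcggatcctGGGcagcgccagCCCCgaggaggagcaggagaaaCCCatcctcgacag
ENAH: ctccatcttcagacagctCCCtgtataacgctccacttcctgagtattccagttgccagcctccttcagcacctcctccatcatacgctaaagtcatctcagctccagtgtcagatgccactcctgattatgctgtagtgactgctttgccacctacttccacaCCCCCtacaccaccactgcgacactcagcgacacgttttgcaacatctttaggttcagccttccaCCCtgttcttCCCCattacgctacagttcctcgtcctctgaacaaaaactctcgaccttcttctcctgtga
LRR1: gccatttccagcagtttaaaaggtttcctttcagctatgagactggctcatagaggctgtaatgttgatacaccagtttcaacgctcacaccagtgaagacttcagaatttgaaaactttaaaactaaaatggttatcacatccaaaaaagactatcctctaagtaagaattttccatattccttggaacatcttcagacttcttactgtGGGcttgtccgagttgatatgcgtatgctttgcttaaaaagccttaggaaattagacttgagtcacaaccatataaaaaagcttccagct

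The GC content was 65.5% for the SNX15 exon and 63.5% for the SZRD1 exon, against 55.2% for ENAH and 37.5% for LRR1 over their full length. The SNX15 exon held 7 runs of G and 9 of C, and the SZRD1 exon 2 and 12. The stretch of ENAH held 0 runs of G and 4 of C, and that of LRR1 held 1 and 0. Such runs are common in exons of this size. A search of the transcript strand found GGG in 93.2% and CCC, which is GGG on the opposite strand, in 93.8% of the 355 long exons of 201 to 300 bp, with 84.9% and 88.2% among the 535 exons of 151 to 200 bp.

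The long exons had a median length of 290 bp (quartiles 230 and 449), and 69 were over 1000 bp. They lay in 600 separate loci and carried 570 gene symbols, of which 69 had 2 or more long exons and 11 had 3 or more. DAXX, which encodes a histone chaperone, had 5 overlapping or neighbouring forms and EEF1D, a translation elongation factor subunit, had 4. The coordinates were those of an annotated exon for 620 of the 654 (94.8%), 23 overlapped an annotated exon only, and 11 met none. For 22 long exons, another long exon of the same length had more than 90% identical bases, and 10 long exons lay in genes of the NPIP family. Reads from such copies cannot be assigned with certainty.

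Long exons differed from shorter ones in where they lie in the gene. Only 210 of 654 (32.1%) were wholly coding, against 52.3% of the exons of up to 200 bp. Another 182 (27.8%) were part coding, 95 (14.5%) lay in untranslated regions and 133 (20.3%) in transcripts without a coding sequence, with 16.4%, 16.2% and 11.4% among the shorter exons. A whole annotated intron lay inside 70 long exons (10.7%) and inside 6 shorter ones (0.259%), and a longer exon has more room to hold one. The length was a multiple of 3 in 41.1% of the long and 43.8% of the shorter exons. The median GC content was 54.4% against 49.5%, and that of the 100 intron bases on each side was 47.5% against 42.5%. No test was made of these differences, since the exons are those that passed the listing in the same libraries.

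Genes with long exons had a lower median level than genes with shorter ones. The median of the authors' mean of normalised counts was 1130 over the 557 genes with a long exon and a value, and 1629 over the 1828 genes with a shorter one. Long exons were listed in more tables. Of the 654, 341 (52.1%) were listed in 1 table, against 65.2% of the shorter exons, and 106 (16.2%) were listed in at least 4 tables, against 8.89% of all exons. A count over tables is not a count of independent observations, because all tables of one replicate number share a control library.

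The number of long exons with a change in inclusion differed between the comparisons. Listed long exons numbered 152 and 69 in replicates 1 and 2 of BRG1-wt, 208 and 151 in BRG1-mut, 248 and 275 in BRM-wt, and 124 and 87 in BRM-mut. Their share of the exons of a table was lowest for BRG1-wt replicate 2 (17.8%) and highest for replicate 1 of BRM-wt (31.0%). Counted over both replicates, BRG1-wt listed 209 long exons (32.0% of the 654, with 31.9% of all exons listed), BRG1-mut 297 (45.4%, with 39.2% of all exons), BRM-wt 396 (60.6%, with 49.2% of all exons) and BRM-mut 198 (30.3%, with 31.2% of all exons). BRM-wt and BRG1-mut thus listed a larger share of the long exons than of all exons.

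**Figure D1:**
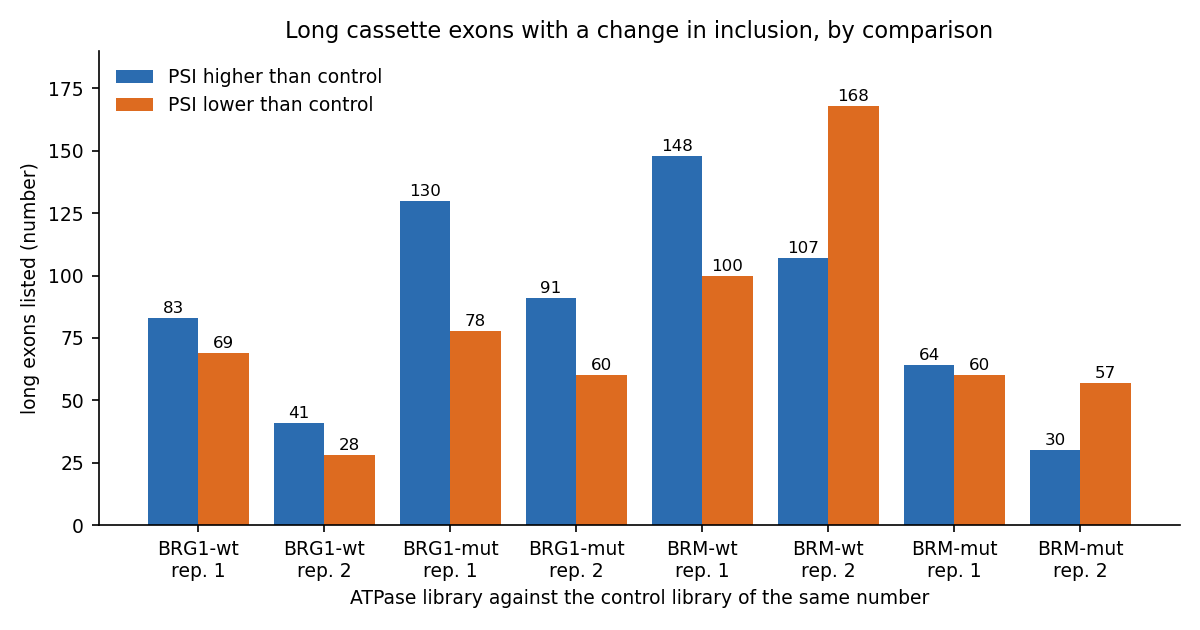
Number of long exons listed with a higher (blue) or lower (orange) PSI than control, for each ATPase library and the control of its number. Higher exons outnumbered lower ones in both replicates of BRG1-wt and BRG1-mut and in replicate 1 of BRM-wt (148 and 100), and lower exons outnumbered higher ones in replicate 2 of BRM-wt (107 and 168) and of BRM-mut (30 and 57).

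In BRG1-mut, 62.5% of the listed long exons in replicate 1 and 60.3% in replicate 2 had a higher PSI than control, and in BRG1-wt 54.6% and 59.4% did. The share was 59.7% in replicate 1 of BRM-wt and 38.9% in replicate 2. Over all listed exons it was near these values, at 57.9% and 58.5% in BRG1-mut and 55.5% and 56.2% in BRG1-wt. In BRM-wt it was 60.2% and 43.0% over all listed exons, so that the turn between replicates was not restricted to long exons. For long exons of BRM-mut the share was 51.6% and 34.5%, while over all exons of these BRM-mut tables it was 49.1% and 49.3%. The median absolute change in PSI of listed long exons lay between 0.18 (BRM-mut replicate 2) and 0.30 (BRM-wt replicate 1).

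The 2 control libraries differed from each other in the long exons. For 210 events the PSI was known in both, with a median of 0.365 in control 1 and 0.495 in control 2. It was higher in control 2 for 127 events, lower for 77 and equal for 6. The absolute difference had a median of 0.14 and was at least 0.2 for 78 events (37.1%), against 36.7% over all events. These events were listed in tables of both numbers, so they are not a random set. The median absolute change of listed long exons, 0.18 to 0.30 by comparison, was larger than the median control difference. Changes and control differences were not compared exon by exon. Since a change in a single replicate can be no larger than the control difference, the results below lead with exons listed in both replicates.

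Agreement between replicates set BRG1-mut and BRM-wt apart. In BRG1-mut, 60 of the 62 long exons listed in both replicates moved in one direction (96.8%, with 92.3% among all exons), 41 up and 19 down. Both BRG1-mut libraries lay beyond both control libraries for 57 of the 62 (91.9%, with 89.5% among all exons). In BRM-wt, 2 of 127 moved in one direction (1.57%, with 5.3% among all exons) and 125 in opposite directions. In BRG1-wt, 9 of 12 moved in one direction (75.0%, with 52.6% among all exons), and in BRM-mut 5 of 13 did (38.5%, with 57.1% among all exons). Libraries beyond both controls were seen for 6 of the 12 in BRG1-wt (50.0%, with 42.1% among all exons), 2 of the 127 in BRM-wt (1.57%, with 4.95%) and 1 of the 13 in BRM-mut (7.69%, with 46.9%). The numbers in BRG1-wt and BRM-mut are small.

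**Figure D2:**
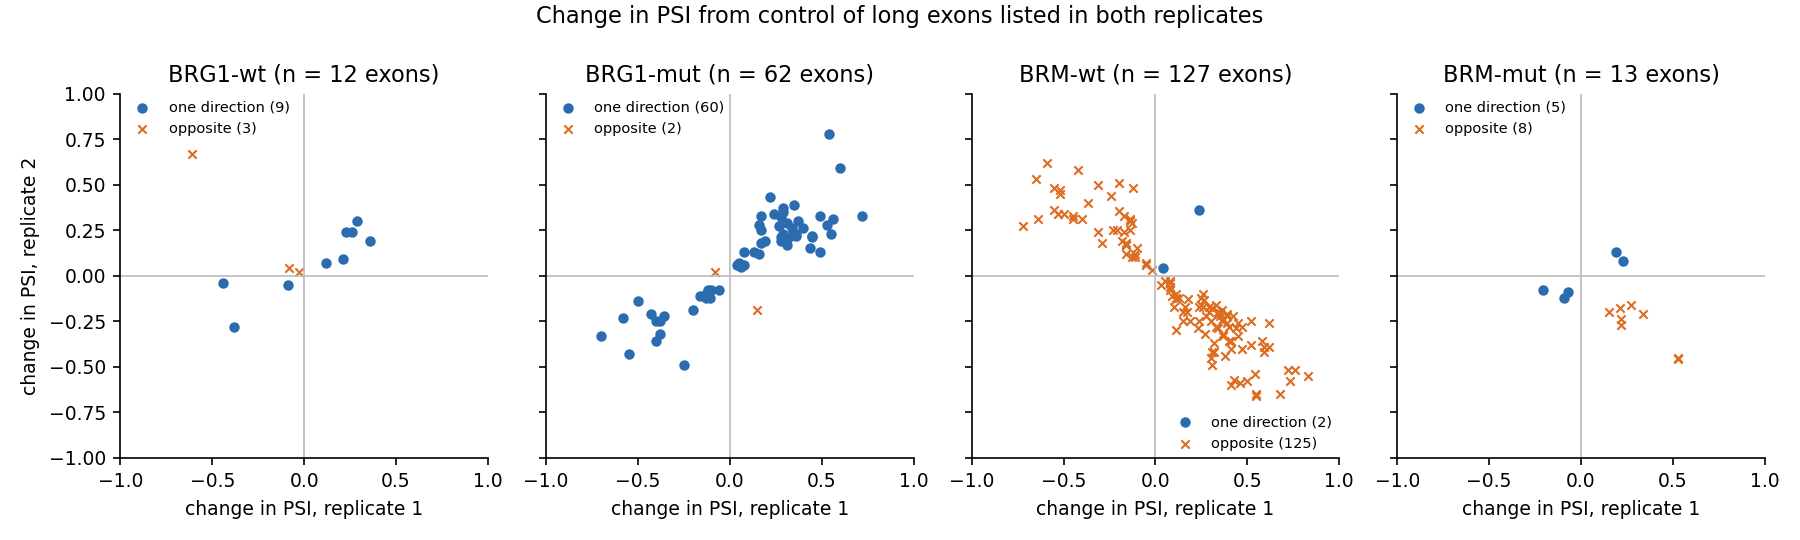
Change in PSI from control in replicate 1 (horizontal axis) against replicate 2 (vertical axis), both as fractions, for each long exon listed in both replicates of a group. Blue points moved in one direction and orange crosses in opposite directions. The 62 exons of BRG1-mut lie mostly in the upper right and lower left, and the 127 of BRM-wt lie in the other corners except for 2 exons.

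Because the BRM-wt libraries went opposite ways, results of BRM-wt are given for each replicate. Of the 125 exons, 83 were higher in replicate 1 and lower in replicate 2. The PSI averaged 0.356 ± 0.219 in control 1 (SD over exons), 0.702 ± 0.266 in BRM-wt 1, 0.586 ± 0.269 in control 2 and 0.296 ± 0.192 in BRM-wt 2. The other 42 were lower in replicate 1 and higher in replicate 2, with means of 0.525, 0.233, 0.338 and 0.635 in the same order. In both sets, BRM-wt 2 lay on the side of control 1 and BRM-wt 1 on the side of control 2, beyond the controls in each case. The sets also differed in kind. Among the 83, the median GC content was 60.9%, 44 (53.0%) were wholly coding and 9 (10.8%) held a whole annotated intron. Among the 42, the median was 50.2%, 1 was wholly coding and 11 (26.2%) held a whole annotated intron. The labels give no batch that separates the 2 BRM-wt libraries, and the origin of the opposite directions was not tested.

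Long exons that rose in both BRG1-mut replicates were more often wholly coding than those that fell. Over all 654 long exons the wholly coding share was 32.1%. The share by direction in shorter exons is given below for affected exons. Of the 41 long exons that rose in both BRG1-mut replicates, 22 (53.7%) were wholly coding, and 22 were exons of the gene's canonical transcript. Of the 19 that fell, 2 (10.5%) were wholly coding and 1 belonged to the canonical transcript. The falling exons were part coding (6), in transcripts without a coding sequence (6), in untranslated regions (3) or matched no annotated exon exactly (2). The median of the mean change was 0.29 (range 0.05 to 0.66) among the rising and -0.315 (range -0.515 to -0.07) among the falling exons. The median GC content was 62.2% in the rising and 54.6% in the falling exons.

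**Figure D3:**
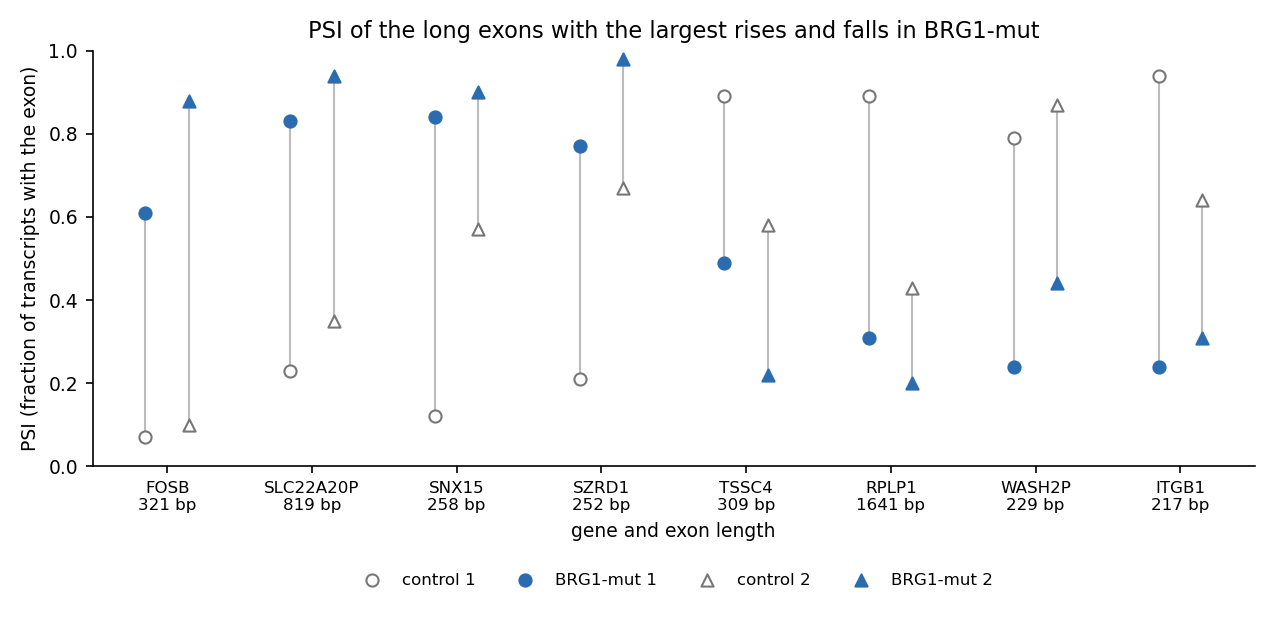
PSI (fraction of transcripts with the exon) of the 4 long exons with the largest mean rise and the 4 with the largest mean fall in BRG1-mut, with lines joining each BRG1-mut library (filled) to the control library of the same number (open). Circles are replicate 1 and triangles replicate 2. In each of the 8 exons both BRG1-mut libraries lie beyond both controls. For WASH2P, the replicate 2 event used another form of the downstream exon than the WASH2P events of the other comparisons.

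The largest rise was in FOSB, which encodes a subunit of the AP-1 transcription factor. Its coding exon 2 of 4 (321 bp, chr19:45973887-45974207, GC content 67.9%) had a PSI of 0.07 and 0.10 in the controls and 0.61 and 0.88 in BRG1-mut. It was also listed in BRM-wt replicate 1, at 0.61. The controls were close to each other here, and the rises of 0.54 and 0.78 were many times their difference. The gene had a mean of normalised counts of 89.6.

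SLC22A20P, annotated as a pseudogene of an organic anion transporter, had an exon of 819 bp in a transcript without a coding sequence that rose from 0.23 to 0.83 and from 0.35 to 0.94. It was listed for BRG1-mut alone, and its gene was lowly expressed, with a mean of normalised counts of 12.3. The coding exon of SNX15, a sorting nexin of the endosome, rose from 0.12 to 0.84 and from 0.57 to 0.90. Here the controls differed by more than the rise of 0.33 in replicate 2, although both BRG1-mut libraries were above both controls. In SZRD1, which encodes a protein with a SUZ domain, 2 forms that share the donor and differ by 3 bp at the acceptor (252 and 255 bp) rose together. The shorter form rose from 0.21 to 0.77 and from 0.67 to 0.98, and the longer from 0.24 to 0.77 and from 0.70 to 0.98.

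Falls were led by ITGB1, the integrin beta-1 gene, whose exon of 217 bp lies in an untranslated region (chr10:33242521-33242737). Its PSI was 0.94 and 0.64 in the controls and 0.24 and 0.31 in BRG1-mut, and it was 0.45 in BRG1-wt 1. In BRM-wt it was 0.22 and 0.91, so that replicate 1 was below and replicate 2 above its control. WASH2P, a pseudogene of the WASH family, had an exon of 229 bp that fell from 0.79 to 0.24 and from 0.87 to 0.44, and copies of this family elsewhere in the genome make its reads uncertain. The event of BRG1-mut replicate 2 used another form of the downstream exon than the WASH2P events of the other tables, where control 2 stood at 0.70.

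RPLP1, a protein of the ribosomal stalk, had an exon of 1641 bp (chr15:69745986-69747626) that holds a whole annotated intron. It fell from 0.89 to 0.31 and from 0.43 to 0.20. The exon of TSSC4, a factor in the assembly of the spliceosomal U5 particle, lies in an untranslated region (309 bp, chr11:2423069-2423377) and fell from 0.89 to 0.49 and from 0.58 to 0.22. In both exons control 1 lay far above control 2, and the BRG1-mut libraries were below both.

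Further rising exons had smaller changes. The coding exon of GADD45A (238 bp, exon 3 of 4), a growth arrest and DNA damage gene, rose by 0.17 and 0.25 from controls of 0.195 and 0.27, with several events averaged in some tables, and was at 0.46 and 0.14 in the BRM-wt libraries. For CTNND1, a catenin gene, exon 3 of 21 (289 bp) rose by 0.31 and 0.29. HNRNPUL1, a nuclear ribonucleoprotein gene, had a coding exon of 222 bp that rose from 0.20 to 0.44 and from 0.41 to 0.75, and was at 0.65 and 0.15 in BRM-wt. The falls of the coding exons of ENAH, an actin regulator, were from 0.55 to 0.42 and from 0.49 to 0.39, so that both libraries lay below both controls by a small margin.

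In BRG1-wt, 6 long exons rose and 3 fell in both replicates. SUGP2, a gene related to splicing factors, had an exon of 214 bp in an untranslated region (chr19:19102149-19102362) at 0.46 and 0.29 in the controls and at 0.72 and 0.53 in BRG1-wt. It was also at 0.70 and 0.65 in BRM-wt, which made it 1 of the 2 long exons that rose in both BRM-wt replicates, and at 0.57 in BRG1-mut 2. In BRG1-wt and in BRM-wt both libraries were above both controls, and BRG1-mut 1 had no value. The other was YWHAZ, an adaptor that binds phosphorylated proteins, whose exon of 380 bp went from 0.12 to 0.16 and from 0.13 to 0.17.

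Exons of 277 bp in NPIPB12 and NPIPB13, near-identical members of a segmental duplication family, rose in both BRG1-wt replicates, NPIPB12 from 0.57 to 0.86 and from 0.66 to 0.96 and NPIPB13 from 0.62 to 0.98 and from 0.77 to 0.96. The copies share sequence and cannot count as separate observations. All 3 exons that fell in both BRG1-wt replicates held a whole annotated intron, and they also fell in replicate 1 of BRM-wt. LIME1, a membrane adaptor of immune signalling, had an unannotated exon of 1868 bp that spans 2 annotated introns and fell from 0.80 to 0.42 and from 0.69 to 0.41. In BRG1-mut the same exon was at 0.42 and 0.44. The mean of normalised counts of the gene LIME1 was listed at 0, so that these PSI values have no counted reads of the matched gene beside them. RPLP1 fell from 0.89 to 0.45 and from 0.43 to 0.39, so that BRG1-wt 1 lay above control 2 and the libraries overlapped the controls. ACTB, the beta-actin gene, had an exon of 503 bp that fell by 0.09 and 0.05 from 0.40 and 0.33.

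MAGEA2B, a cancer-testis antigen gene, had the largest opposite changes in BRG1-wt. Its PSI was 0.84 in control 1 and 0.23 in BRG1-wt 1, but 0.22 in control 2 and 0.89 in BRG1-wt 2. The 2 controls thus stood as far apart as the ATPase libraries, and the gene was lowly expressed, with a mean of normalised counts of 24.2. In CFL1, the cofilin gene, 2 forms of 246 and 534 bp also moved in opposite directions, by 0.08 at most.

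In BRM-wt, the largest opposite changes were in TTC28-AS1, an antisense RNA gene, and TMCO6. The TTC28-AS1 exon of 235 bp was at 0.22 in control 1 and 0.90 in BRM-wt 1, and at 0.90 in control 2 and 0.25 in BRM-wt 2. In TMCO6, the exon of 203 bp in an untranslated region was at 0.77 and 0.18, and at 0.16 and 0.78. In both exons each BRM-wt library had nearly the value of the control library of the other number. The TTC28-AS1 exon was at 0.80 in BRG1-wt 1 and 0.82 in BRG1-mut 1, and the files do not say whether reads were assigned by strand.

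In BRM-mut, 2 long exons rose and 3 fell in both replicates, with small changes. BBLN, which encodes a coiled-coil protein, had an exon of 949 bp that rose from 0.78 to 0.97 and from 0.53 to 0.66. RPS3, a protein of the small ribosomal subunit, had an exon of 807 bp with 4 annotated introns inside it that rose from 0.76 to 0.99 and from 0.67 to 0.75. RBM4, a splicing regulator, fell by 0.205 and 0.08, BRD2, a bromodomain protein that binds acetylated histones, by 0.09 and 0.12, and YTHDF1, a reader of methylated adenosine in mRNA, by 0.07 and 0.09. Both BRM-mut libraries lay beyond both controls for RBM4, whose event differed between the replicates, and overlapped the controls for the other 4. All 8 exons with opposite changes were higher in replicate 1 and lower in replicate 2, led by SLC2A11 (0.25 to 0.78, and 0.70 to 0.24) and MAP3K8 (0.20 to 0.73, and 0.73 to 0.28).

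**Figure D4:**
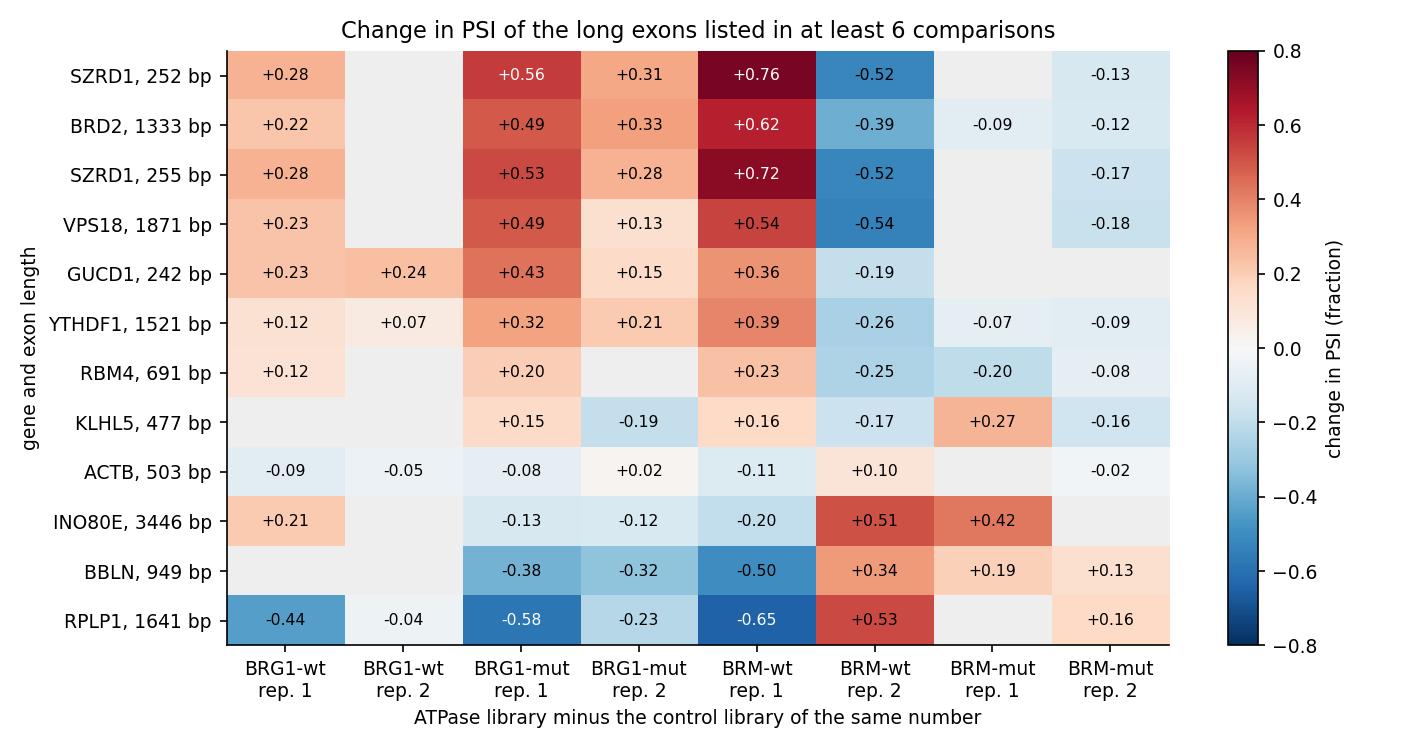
Change in PSI (fraction) of the 12 long exons listed in at least 6 comparisons, with the ATPase library minus the control library of the same number in each cell, red for higher, blue for lower and grey where the exon was not listed. All 12 rows change sign between replicate 1 and replicate 2 of BRM-wt. The rows of SZRD1, BRD2, VPS18, GUCD1, YTHDF1 and RBM4 are positive wherever BRG1-wt or BRG1-mut was listed.

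The 12 long exons listed in at least 6 tables share control libraries, so that their rows are not independent between columns. YTHDF1 was the only long exon listed in all 8 tables. Its coding exon 4 of 5 (1521 bp, chr20:61833639-61835159) was at 0.41 and 0.61 in the controls. It was at 0.53 and 0.68 in BRG1-wt, 0.73 and 0.82 in BRG1-mut, 0.80 and 0.35 in BRM-wt, and 0.34 and 0.52 in BRM-mut. The BRG1-mut values were above both controls, whereas each BRG1-wt and BRM-mut library differed from its own control by less than the controls differed from each other.

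BRD2 was listed in 7 tables. Its exon 2 of 13 (1333 bp, chr6:32939372-32940704, part coding) was at 0.32 and 0.64 in the controls, 0.81 and 0.97 in BRG1-mut, 0.94 and 0.25 in BRM-wt and 0.23 and 0.52 in BRM-mut, and at 0.54 in BRG1-wt 1. The coding exon 4 of 5 of VPS18 (1871 bp), a subunit of the endosomal tethering complexes, was at 0.30 and 0.73 in the controls, 0.79 and 0.86 in BRG1-mut and 0.84 and 0.19 in BRM-wt, and at 0.53 in BRG1-wt 1 and 0.55 in BRM-mut 2. GUCD1 exon 5 of 6 (242 bp) rose in both replicates of BRG1-wt and BRG1-mut, but the event in BRG1-wt replicate 2 used another flanking exon than that of BRG1-mut replicate 2, so that the control stood at 0.71 in one and 0.33 in the other.

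BBLN and INO80E, a subunit of the INO80 remodelling complex, fell in both BRG1-mut libraries. BBLN fell from 0.78 to 0.40 and from 0.53 to 0.21 in BRG1-mut. The INO80E exon of 3446 bp, which holds 6 annotated introns, fell by 0.13 and 0.12 in BRG1-mut from 0.50 and 0.43, and was at 0.71 in BRG1-wt 1, 0.30 and 0.94 in the BRM-wt libraries and 0.92 in BRM-mut 1. KLHL5, a Kelch-family gene, and ACTB went opposite ways in the 2 BRG1-mut libraries. The ACTB exon was at 0.32 in BRG1-mut 1 and 0.35 in BRG1-mut 2, against 0.40 and 0.33 in the controls. The KLHL5 exon of 477 bp was at 0.17 in control 1 and 0.50 in control 2, and every ATPase library that listed it lay between these values, from 0.31 to 0.44, so that the sign of its change followed the replicate number.

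Some exons had one direction in both replicates of each of 2 groups. For BRG1-wt and BRG1-mut there were 4 such exons (LIME1, RPLP1, GUCD1 and YTHDF1), and the direction was the same in both groups for all 4. For BRG1-mut and BRM-mut there were 3 (YTHDF1, BRD2 and BBLN), and the direction was opposite for all 3. The BRM-mut libraries overlapped the controls for all 3, as did the BRG1-wt libraries for RPLP1, GUCD1 and YTHDF1. These counts cover long exons only. The groups share the control libraries, and the differences between groups were not tested.

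GC content went with direction in most comparisons. In BRG1-mut, the median GC content of listed long exons was 60.9% for those with a higher PSI and 51.6% for those with a lower PSI in replicate 1, and 62.1% and 51.5% in replicate 2. In BRG1-wt it was 60.0% and 50.0%, and 57.3% and 48.6%. The order was turned in BRM-mut, with 49.2% and 53.7% in replicate 1 and 46.6% and 54.5% in replicate 2. In BRM-wt it was 61.2% and 52.3% in replicate 1, and 48.8% and 60.0% in replicate 2.

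**Figure D5:**
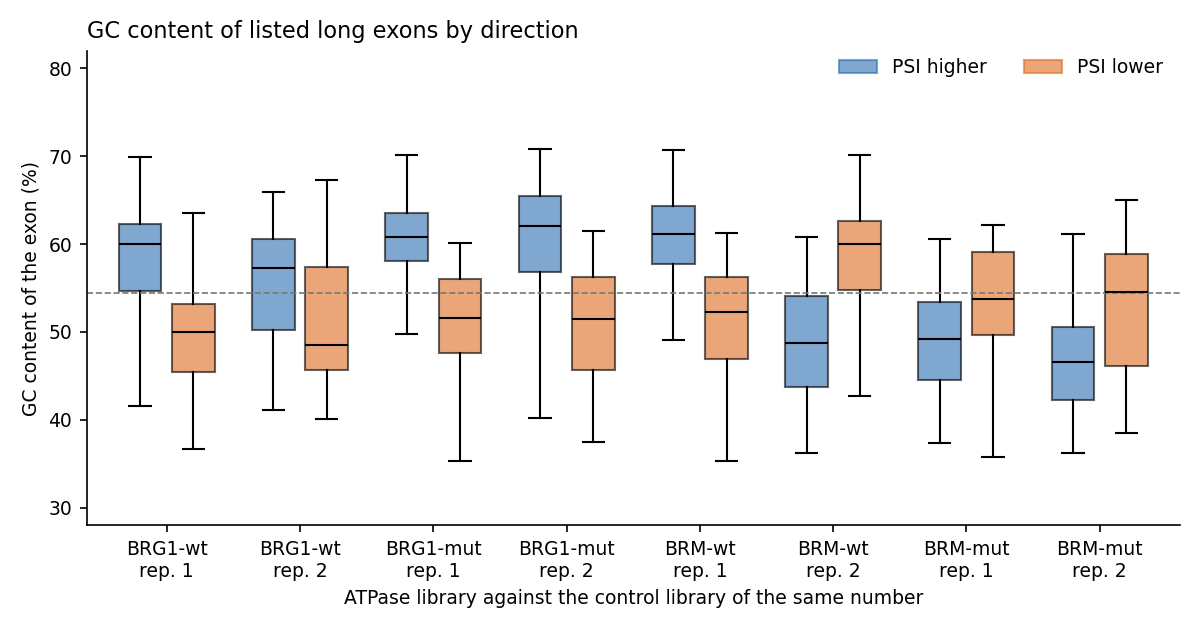
GC content (%) of long exons with a higher (blue) or lower (orange) PSI than control in each comparison, with boxes from the first to the third quartile, a line at the median and whiskers from the 5th to the 95th percentile. The dashed line is the median of all 654 long exons (54.4%), and higher exons lie above lower ones for both BRG1 groups and BRM-wt replicate 1 and below them in BRM-wt replicate 2 and BRM-mut.

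The same order of medians was seen in exons of up to 200 bp, where the higher minus the lower median was 11.1 and 2.84 points in BRG1-mut, 10.1 and -9.84 in BRM-wt, 4.88 and 4.15 in BRG1-wt and -4.15 and -1.95 in BRM-mut. For long exons the differences were 9.23 and 10.6, 8.88 and -11.2, 10.0 and 8.71, and -4.55 and -7.91. The relation of GC content to direction is thus not restricted to long exons.

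Affected exons were counted by the rules of the study's methods as read here. These rules discard short forms and any exon whose direction differs between replicates or between groups. Over all exons they gave 807 affected exons in BRG1-wt, 993 in BRG1-mut, 1098 in BRM-wt and 766 in BRM-mut. Each count was lower than the one the paper reports, so that its counts were not reproduced exactly. A listing in 1 replicate was enough. BRG1-wt had 175 affected long exons (26.8% of the 654, with 27.2% of all exons affected), 95 included and 80 skipped. BRG1-mut had 247 (37.8%, with 33.4% of all exons), 149 included and 98 skipped. BRM-wt had 244 (37.3%, with 37% of all exons), 114 included and 130 skipped, and BRM-mut 145 (22.2%, with 25.8% of all exons), 65 included and 80 skipped. Among all exons of the tables, 14.8% were included and 12.4% skipped in BRG1-wt, 18.9% and 14.6% in BRG1-mut, 18.8% and 18.2% in BRM-wt, and 13.1% and 12.7% in BRM-mut. Only 7, 44, 2 and 1 of the affected long exons were listed in both replicates, in the order in which the groups are given above.

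The included share of affected long exons was 60.3% in BRG1-mut, against 55.1% of the affected shorter exons, and 44.8% in BRM-mut, against 52.3%. In BRG1-wt it was 54.3% in both classes, and in BRM-wt it was 46.7% and 51.9%. With replicate 2 of BRM-wt left out, the included share of BRM-wt was 61.2%. The mean GC content of included long exons in BRG1-mut was 59.5% ± 8.70 (SD over 149 exons) and that of skipped ones 50.9% ± 7.56 (SD over 98 exons), a difference of 8.60 points, against 5.35 points in shorter exons. It was 56.1% ± 9.01 and 50.0% ± 7.90 in BRG1-wt, 54.3% ± 10.5 and 53.6% ± 9.32 in BRM-wt, and 47.7% ± 8.07 and 51.0% ± 8.37 in BRM-mut. From replicate 1 alone, the difference in BRM-wt was 9.72 points, and from replicate 2 alone -8.87 points. In BRG1-wt it was 7.94 and 2.64 points, and in BRM-mut -2.21 and -5.46 points. Wholly coding exons made up 69 of the 149 included and 17 of the 98 skipped long exons in BRG1-mut, 36 of 95 and 13 of 80 in BRG1-wt, 42 of 114 and 37 of 130 in BRM-wt, and 14 of 65 and 27 of 80 in BRM-mut. Among shorter exons the counts were 239 of 411 and 153 of 335 in BRG1-mut and 216 of 343 and 142 of 289 in BRG1-wt. They were 234 of 443 and 202 of 411 in BRM-wt, and 164 of 325 and 163 of 296 in BRM-mut. In both BRG1 groups, included shorter exons were thus also more often wholly coding than skipped ones.

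Splicing regulators had 11 long exons in 10 genes of the list used here. Of these, 4 were included and 0 skipped in BRG1-wt, 3 and 1 in BRG1-mut, 4 and 0 in BRM-wt, and 2 and 0 in BRM-mut. Beside this list and those below, the included share of all affected long exons was 54.3%, 60.3%, 46.7% and 44.8% in the same order. Over all affected exons it was 54.3%, 56.4%, 50.7% and 50.9%. The groups share the control libraries, so that the counts of a list are not independent between groups. RBM10, an RNA-binding splicing regulator, had a coding exon of 231 bp (exon 4 of 24) at 0.11 in control 1, 0.47 in BRG1-wt 1, 0.29 in BRG1-mut 1 and 0.32 in BRM-wt 1. TRA2B, which encodes a regulator of exon inclusion, had an exon of 276 bp at 0.26 and 0.21 in the controls and at 0.14 and 0.13 in BRG1-mut, 0.15 and 0.33 in BRM-wt and 0.38 in BRM-mut 1. SF1, the branch point binding protein, had a coding exon of 205 bp that was rare wherever it was listed, at 0.02 and 0.08 in the controls, 0.08 and 0.13 in BRG1-mut and 0.10 and 0.00 in BRM-wt. SRSF3 and SRSF7, of the SR protein family, changed by 0.03 at most.

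Zinc finger genes had 20 long exons in 18 genes. Of these, 6 were included and 2 skipped in BRG1-wt, 3 and 0 in BRG1-mut, 3 and 2 in BRM-wt and 6 and 1 in BRM-mut. ZNF142 had 2 forms of 371 and 600 bp that share an end and moved together, from 0.24 to 0.55 and from 0.31 to 0.60 in BRG1-wt 1. They reached 0.56 and 0.60 in BRG1-mut 1 and 0.58 and 0.70 in BRM-wt 1, and went from 0.48 to 0.28 and from 0.55 to 0.34 in BRM-wt 2. ZNF839 exon 3 of 8 was at 0.64 in control 1, 0.93 in BRG1-mut 1, 0.95 in BRM-wt 1 and 0.32 in BRM-mut 1, and it was at 0.92 in control 2 and 0.43 in BRM-wt 2.

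Chromatin regulators had 13 long exons in 9 genes, with 1 included and 0 skipped in BRG1-wt, 2 and 3 in BRG1-mut, 2 and 2 in BRM-wt and 0 and 3 in BRM-mut. The DAXX exon 3 of 8 (832 bp) was at 0.79 in control 1 and 0.94 in BRM-wt 1, and at 0.86 in control 2, 0.75 in BRG1-mut 2 and 0.61 in BRM-wt 2. BRD9, a subunit of a SWI/SNF complex, had an exon of 513 bp at 0.26 in both controls that was at 0.87 in BRG1-wt 1 and 0.79 in BRM-wt 2, each without the other replicate. BRD3, a relative of BRD2, had a coding exon of 236 bp at 0.82 and 0.88 in the controls, 0.30 in BRM-mut 1 and 0.25 in BRM-wt 2.

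DNA repair and checkpoint genes had 6 long exons, cytoskeleton and adhesion genes 10, and AP-1 and stress response genes 2. The DNA repair exons split into 1 included and 0 skipped in BRG1-wt, 2 and 2 in BRG1-mut, 0 and 1 in BRM-wt, and 0 and 1 in BRM-mut. POLL, the DNA polymerase lambda gene, had a coding exon of 295 bp that rose by 0.19 in BRG1-wt 2, 0.22 in BRG1-mut 1 and 0.275 in BRM-wt 1 and fell by 0.22 in BRM-wt 2. The adhesion exons split into 1 and 1, 2 and 2, 0 and 2, and 2 and 1 in the same order, and the AP-1 and stress exons into 0 and 0, 1 and 0, 1 and 0, and 0 and 1. DST, which encodes the cytoskeletal linker dystonin, had a coding exon of 2730 bp at 0.76 in control 1, 0.96 in BRG1-mut 1 and 0.98 in BRM-mut 1. These lists were small, and in each the exons were a small part of the 654.

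The longest members were mostly listed once. FSIP2, a gene of the sperm tail, had a coding exon of 9437 bp (exon 17 of 23) that was at 0.22 in control 1 and 0.04 in BRM-wt 1, with a mean of normalised counts of 0.992 for the gene. ASPM, a protein of the spindle pole, had its coding exon 18 of 28 (4755 bp) at 0.81 in control 1 and 0.70 in BRM-mut 1. The exons of SAYSD1 (4407 bp, 0.78 to 0.96 in BRM-mut 1) and TMEM45A (4051 bp, 0.01 to 0.05 in BRM-wt 2 and 0.04 in BRM-mut 2) followed. JCAD, of endothelial junctions, had a coding exon of 3764 bp at 0.57 and 0.96 in the controls, 0.76 in BRG1-wt 1, 0.96 in BRG1-mut 1, and 0.98 and 0.56 in the BRM-wt libraries. At the length threshold, the first members inside were exons of 201 bp in FAM204A (0.39 to 0.58 in BRG1-mut 2) and NHLRC3 (0.91 to 0.67 in BRG1-wt 1), and the first outside were exons of 200 bp in PPM1E (0.68 to 0.93 in BRG1-mut 2) and MTFR1L (0.08 to 0.03 in BRG1-wt 1).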

How the data were processed

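Polyadenylated RNA of 10 libraries was sequenced, with 2 libraries in each of 5 groups of transfected C33A cells. The authors mapped the reads to GRCh37 (TopHat2 2.0.4 in the submitters' processing notes) and ran MISO, and the deposited tables give PSI as a fraction to 2 decimals for events above a Bayes factor of 10. The Bayes factor, a score that the authors computed, was used only to check this threshold (lowest value 10.02). The authors counted reads with HTSeq 0.6.1, and the deposited base mean, used as a score of gene level, is their mean of DESeq2-normalised counts over 4 libraries. The median over the 4 expression tables was taken for each gene. Columns of fold changes and p-values hold the authors' own comparisons and were not used, nor was a second copy of the BRG1-wt expression table. No read counts per event are in these files, so the precision of a single PSI value is unknown.

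Middle exons were read from the event names, and those over 200 bp were taken. Several events of 1 middle exon in a table were averaged (25 long exons). Exons were matched by coordinates to the GENCODE v44 annotation of GRCh37, with readthrough genes and genes without a symbol used last, and the GC content was read from the genome. An exon was wholly coding where the coding sequence of a transcript covered it in full. Near-identical copies are long exons of one length with over 90% identical bases. Affected exons followed the rules of the study's methods as read here, with short forms left out (less than 50% as long as the longest exon with the same start or end). The methods do not say whether both replicates must list an exon, and 1 was taken as enough.

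The exons named were, in each group, the 4 largest mean rises and falls with one direction in both replicates and the 2 largest opposite changes, as well as the 5 longest exons, those in at least 6 tables, those listed in both replicates of BRG1-wt and of BRM-wt or BRG1-mut, the members of 6 gene lists in at least 2 tables, and those next to the length threshold. Of the last 4 classes not every exon is described. ENAH and LRR1 were shown as coding exons that fell, chosen after their values were seen. The members, lists and rules were chosen with earlier results of these data known. Alternatives were requiring both replicates, a PSI change of 0.2 or more, leaving out either replicate, opposite directions between groups kept, short forms kept, the event with the largest change taken, medians, and lengths above 250 or 300 bp. The exon rules were tested on simulated data. The software was pandas 2.3.3, numpy 2.4.6 and matplotlib 3.10.9 under Python 3.11.15.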

Additional observations from a re-analysis of the deposited data

Results flagged for a closer look

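In 3 long exons the mean change from control had one direction in both replicates of one group and the opposite direction in both replicates of another. The groups share the control libraries, and none of these differences was tested. In all 3 exons the BRM-mut libraries overlapped the controls, and for YTHDF1 the BRG1-wt libraries did as well. For the YTHDF1 exon of 1521 bp, the mean change was 0.095 in BRG1-wt and -0.08 in BRM-mut, a difference of 0.175. The same exon had a mean change of 0.265 in BRG1-mut, which lay 0.345 above that of BRM-mut. For the BRD2 exon of 1333 bp, the mean change was 0.41 in BRG1-mut and -0.105 in BRM-mut, a difference of 0.515. The BBLN exon of 949 bp went the other way, with -0.35 in BRG1-mut and 0.16 in BRM-mut, a difference of -0.51.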

How the results depend on the processing

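No paired analysis was possible because no test was made that a replicate block could enter. Every change is already the difference from the control of its own number. Without pairing, exons listed in both replicates were compared by whether both ATPase libraries lay beyond both control libraries. The number of long exons was 417 above 250 bp and 299 above 300 bp. Affected long exons numbered 175 in BRG1-wt, 247 in BRG1-mut, 244 in BRM-wt and 145 in BRM-mut. A listing in both replicates, required before directions were compared between groups, left 8, 57, 2 and 2 in the same order, and lengths above 300 bp left 72, 120, 112 and 71. A change in PSI of at least 0.2 left 110 in BRG1-wt and 88 in BRM-mut. With one replicate left out, the counts ranged from 60 (without replicate 1) to 141 (without replicate 2) in BRG1-wt, from 104 (without replicate 1) to 186 in BRG1-mut, from 219 to 226 in BRM-wt and from 75 (without replicate 1) to 96 (without replicate 2) in BRM-mut. The included share was 62.5% in BRG1-wt, 68.4% in BRG1-mut and 100% in BRM-wt (2 exons) where both replicates had to list an exon. It ranged from 41.2% to 61.2% in BRM-wt and from 34.7% to 53.1% in BRM-mut with one replicate left out. With a change of at least 0.2 in both replicates, one direction was kept by 35 of 35 exons for BRG1-mut, 4 of 5 for BRG1-wt, 0 of 5 for BRM-mut and 1 of 77 for BRM-wt. Above 300 bp it was kept by 34 of 36 for BRG1-mut, 4 of 6 for BRG1-wt and 1 of 68 for BRM-wt. The GC content of included minus skipped long exons in BRM-wt was 0.693 points and turned to -0.032 with medians, to -0.713 above 300 bp, and ranged from -8.87 (without replicate 1) to 9.72 with one replicate left out. It stayed between 2.64 and 7.94 in BRG1-wt, 7.56 and 9.23 in BRG1-mut, and -5.46 and -2.21 in BRM-mut when replicates were left out. With medians it was 9.72 points in BRG1-wt, against 6.19 with means, and -5.17 in BRM-mut, against -3.29. Other alternatives moved the counts by less than 1.5 times. The causes of these shifts were not tested, other than that fewer exons enter under a stricter rule. The unknown read depth of each event limits single PSI values, and an exon that is not listed may have changed as well.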
